A study of Mus musculus with 4 samples.

Results

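The difference between mice without and with the transcription factor Nrf2, in lung outside the tumors, was read from 2 of the 4 arrays of the study. Of these, 1 was hybridised with non-tumor lung of Nrf2-/- mice and 1 with non-tumor lung of Nrf2+/+ mice. Both groups were female ICR mice, an outbred stock, aged 6 months, and both had received urethane at 1 g/kg by intraperitoneal injection 16 weeks before the tissue was taken. Urethane is a carcinogen that induces lung adenomas in mice, so the Nrf2+/+ control was itself exposed tissue, and no unexposed lung was used here. RNA of 8 mice was pooled for each array, and the other 2 arrays held pools of lung tumors, between 1.0 and 1.5 mm across, from the same genotypes under the same treatment. The sources used here do not give how the Nrf2 allele was disrupted, or whether lung and tumors came from the same animals.

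Members of the comparison were genes or transcripts that the scanner software marked as well above background on 1 or both non-tumor arrays. There were 20201 of them, out of 20551 well above background on any of the 4 arrays and 32300 represented on the array. Of these, 18609 were measured on both arrays, 1023 on the Nrf2+/+ array only and 569 on the Nrf2-/- array only. Every value below labelled a signal is the background-subtracted brightness of a spot on a linear scale. Every difference is Nrf2-/- minus Nrf2+/+ on the log2 scale after each array was divided by its own 75th percentile. These percentiles were 760 and 742 signal units for Nrf2+/+ and Nrf2-/- non-tumor lung, and 555 and 584 for the tumors.

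With 1 pool on each side the difference has no replicate error and no p-value. For bright genes the error estimate of the scanner software came to 0.20 per difference (log2). The lowest over all members was also 0.20, so bright genes sat at a floor of this estimate. It covers the measurement alone, not the spread between mice. The Nrf2+/+ non-tumor array lay on slide 1 and the other 3 arrays on slide 2, so slide and genotype cannot be told apart in non-tumor lung. The tumor pair lay within slide 2 and shares no array with the non-tumor pair, and it is given beside non-tumor lung for the main members. In a whole tissue, fewer cells of a type and less RNA per cell cannot be told apart.

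Nrf2, encoded by Nfe2l2, is a basic leucine zipper factor that is held in the cytoplasm and sent for degradation by Keap1. Electrophiles and oxidants modify Keap1, and Nrf2 then accumulates, pairs with small Maf proteins and binds antioxidant response elements. Its best known targets make and use glutathione, reduce quinones and thioredoxin, supply NADPH and conjugate foreign compounds. In macrophages and epithelium Nrf2 is also known to restrain inflammatory gene expression.

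Short promoter sequences that match known response elements are shown first. The core of the antioxidant response element was searched as TGACNNNGC on both strands of the RefSeq promoter windows of build GRCm38.p6, which run from 250 bases before to 50 bases after each gene's start. It was found in 3781 of 27025 genes with a window (12.4% of all 32851 windows), and in 20 of the 108 measured detoxification genes that have a window. Among those at least 2-fold lower in Nrf2-/- lung, 2 of 16 had it. Windows of 3 textbook target families are printed with the match in capitals, for the plus strand genes Gsta3 at chr1:21240444-21240492, Txnrd1 at chr10:82859094-82859142 and Gclm at chr3:122245403-122245451.

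Gsta3: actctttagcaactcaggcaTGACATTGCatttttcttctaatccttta

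Txnrd1: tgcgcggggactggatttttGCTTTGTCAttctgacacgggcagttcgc

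Gclm: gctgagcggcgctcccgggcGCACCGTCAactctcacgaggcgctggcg

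The core of the interferon-stimulated response element was searched as GAAANNGAAA on both strands of the same windows, because a family of interferon-inducible genes was lower together in Nrf2-/- lung. It was found in 3.99% of all genes with a window (3.44% of windows) and in 8 of the 9 interferon-inducible GTPase genes that have one. Among those at least 2-fold lower in Nrf2-/- lung, 5 of 6 had it, so it did not set the lower members apart from the others. Windows of 6 of the 8 are printed, with matches in capitals. They lie at chr11:58199502-58199551 (Igtp, plus strand), chr11:58214893-58214942 (Irgm2, plus strand), chr11:48992294-48992343 (Tgtp1, minus strand), chr11:48871421-48871470 (Irgm1, minus strand, where copies of the motif overlap), chr3:142620584-142620633 (Gbp2, plus strand) and chr3:142496749-142496798 (Gbp5, plus strand).

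Igtp: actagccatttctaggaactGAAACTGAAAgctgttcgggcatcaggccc

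Irgm2: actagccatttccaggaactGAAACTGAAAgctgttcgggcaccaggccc

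Tgtp1: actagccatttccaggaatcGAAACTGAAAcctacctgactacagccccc

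Irgm1: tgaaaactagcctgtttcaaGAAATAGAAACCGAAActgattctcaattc

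Gbp2: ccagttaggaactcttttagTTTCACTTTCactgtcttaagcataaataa

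Gbp5: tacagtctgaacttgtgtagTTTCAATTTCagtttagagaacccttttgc

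The windows of Irgm2 and Igtp were identical at 48 of 50 bases, and that of Tgtp1 matched them at 36 and 34 of 50. A match describes the letters of the window and is not evidence of binding.

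The array first served to check the genotype labels. Nfe2l2 gave a signal of 7913 in Nrf2+/+ and 5.13 in Nrf2-/- non-tumor lung, and 7478 and 6.94 in the corresponding tumors. It was well above background on both Nrf2+/+ arrays and on neither Nrf2-/- array. Against the lowest level well above background on the Nrf2-/- array, Nfe2l2 was at least 376-fold lower in the Nrf2-/- lung. Such a bound divides the level on the bright array by the dimmest level that still counted as measured on the dim array, or by what the gene itself showed there if more, and "at least" has this meaning throughout. A second Nfe2l2 probe gave 6147 and 6.07 in non-tumor lung. Of the 10 nearest measured genes on each side of Nfe2l2, 18 of 20 lay within 2-fold, between -0.58 and 0.40. The exceptions were Chrna1, higher in Nrf2-/- lung, and Cyct, lower there, each near background and measured on 1 of the 2 arrays.

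Lung markers were present in both pools. Sftpc, the surfactant protein C gene of alveolar type 2 cells, gave 251630 and 276630 in Nrf2+/+ and Nrf2-/- non-tumor lung. Measured were 17 alveolar type 2, 13 alveolar type 1, 20 endothelial and 13 smooth muscle and pericyte genes. None of them was past 2-fold either way on its brightest probe. Their median differences were 0.17, -0.04, -0.13 and -0.03. A second, dimmer probe of Cav1, on the alveolar type 1 list, was at -1.07, against -0.26 on the brighter one. The 11 reference genes had a median of 0.02 and none was past 2-fold. The 16 ciliated cell genes had a median of -0.28, with Sntn at -1.05 as the only one past 2-fold.

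Over all 20201 members, 617 genes (3.05%) were higher in Nrf2-/- non-tumor lung by 2-fold or more, and 938 (4.64%) were lower by as much. These are the shares against which every list below is read. The lists hold named genes only, and of the 14151 members with a gene symbol 377 were higher and 520 lower by 2-fold or more. The median difference was 0.02 and the robust spread was 0.33 on the log2 scale. At 4-fold the counts were 211 higher and 302 lower, and at 8-fold 91 and 137. Of the genes past 2-fold, 39.7% were higher, and this share became 51.3% when arrays were scaled to their median instead of their 75th percentile. Under the median scaling all genes shifted up by 0.14.

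Dim genes supplied most of these calls. Among the 4041 genes with the lowest mean level, 22.6% were past 2-fold, against 1.36% of the 4040 with the highest. The 4041 dimmest genes held 327 of the 617 higher and 587 of the 938 lower genes. For genes with a second measured probe, 21 of 38 higher genes and 21 of 51 lower genes were also past 2-fold the same way on that probe, and 32 and 44 had the same sign.

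**Figure D1:**
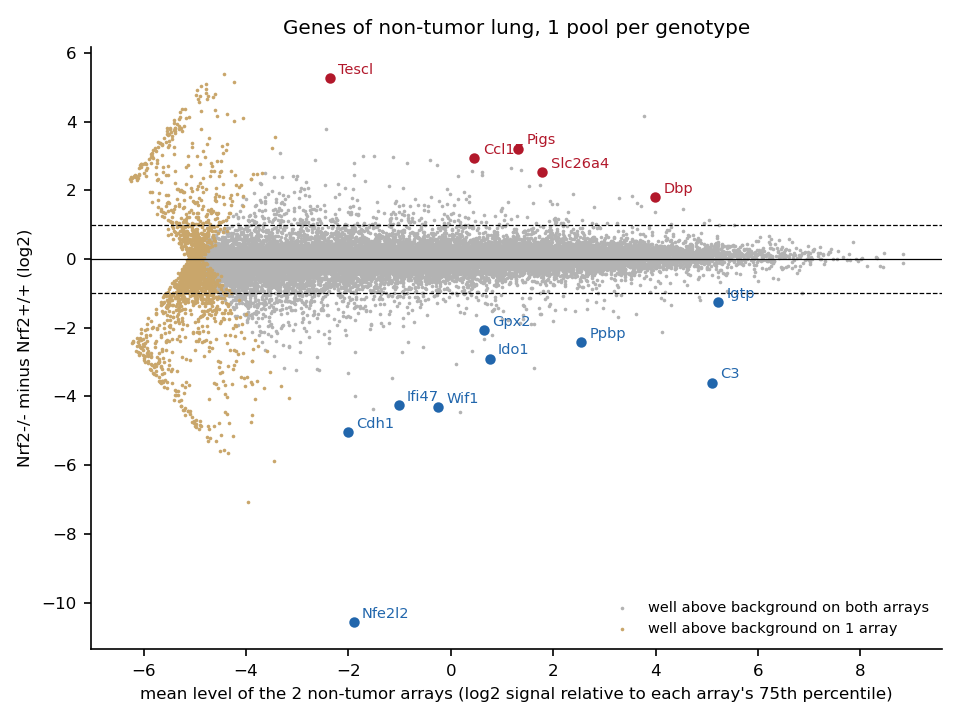
Difference between Nrf2-/- and Nrf2+/+ non-tumor lung (log2, vertical axis) against the mean level of the 2 arrays (log2 signal relative to each array's 75th percentile, horizontal axis) for the 20201 measured genes. Grey points were well above background on both arrays, tan points on 1, and dashed lines mark 2-fold; Nfe2l2 lies at -10.56 and the spread narrows toward bright genes.

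The Nrf2+/+ non-tumor array stood apart from all 3 others for many of the genes that were lower in Nrf2-/- lung. Of the 938 lower genes, 561 (59.8%) were at least 2-fold higher on that array than on each of the other 3. Of the 617 higher genes, 134 (21.7%) were at least 2-fold lower there than on each other array. The same counts are given below beside many of the lists they touch, though not all.

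Detoxification genes as a whole were lower more often than higher. Of 132 genes on the array in 10 lists, 126 were measured, 5 of them through 1 of the 2 arrays. In the Nrf2-/- lung 19 (15.1%) were lower by 2-fold or more and 3 (2.38%) higher, and the median difference was -0.16. For 9 of the 19 the Nrf2+/+ non-tumor array was at least 2-fold above each of the other 3. When members whose bound did not reach 2-fold were left out, 17 lower and 3 higher remained. In the tumors 21 were lower and 2 higher of 120 measured, and 14 were lower in both tissues. Restricted to genes well above background on all 4 arrays, 12 were lower in non-tumor lung.

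Glutathione peroxidase 2, an epithelial enzyme that reduces hydroperoxides with glutathione, was the detoxification gene with the lowest difference among those measured on all 4 arrays. Gpx2 gave 2434 in Nrf2+/+ and 563 in Nrf2-/- non-tumor lung, and 2455 and 339 in tumors. The differences were -2.08 in non-tumor lung and -2.93 in tumors, so both Nrf2-/- arrays were below both Nrf2+/+ arrays. The other 5 glutathione peroxidase genes had differences above 0, up to 0.45.

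Genes that make and recycle glutathione differed little, and of 7 measured only the reductase was past 2-fold. It was inside the mark with median scaling, normexp background correction or the mean of a gene's probes. Gsr, which regenerates reduced glutathione with NADPH, gave 1429 and 681 in non-tumor lung, a difference of -1.03, and 1102 and 819 in tumors, a difference of -0.50. Gclc, the catalytic subunit of the rate-limiting ligase, gave 3476 and 2625, a difference of -0.37 in non-tumor lung, and 0.45 in tumors. Gclm, its modifier subunit, gave 60.6 and 61.4, and Gss, the synthetase, was at -0.14.

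Among 21 glutathione S-transferase genes, which conjugate glutathione to electrophiles, 3 were past 2-fold on the lower side and none on the higher side, with a median of -0.22. Gsta3, of the alpha class, gave 32170 and 14658 in non-tumor lung and 11818 and 4694 in tumors. Gstm3, of the mu class, gave 33327 and 14316, then 16082 and 6037. The differences of Gsta3 and Gstm3 were -1.10 and -1.18 in non-tumor lung and -1.41 and -1.49 in tumors. Gstm6 was at -1.35 in non-tumor lung and -1.59 in tumors, and Gstm1 lay just inside the mark at -0.99. Gstt1 ran the other way at 0.96. The mu class genes are close relatives, and their probes may share transcripts.

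Quinone reduction and NADPH supply gave 2 lower genes of 9. Nqo1, the quinone reductase used as a marker of Nrf2 activity, gave 248 in Nrf2+/+ and 78.8 in Nrf2-/- non-tumor lung, a difference of -1.62. Its tumor signals were 58.1 and 34.7, near background, a difference of -0.82. Me1, the malic enzyme that makes NADPH, gave 1949 and 772 in non-tumor lung and 7212 and 3257 in tumors, differences of -1.30 and -1.22.

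The thioredoxin and peroxiredoxin list had none of 14 genes past 2-fold. Txnrd1, thioredoxin reductase, was at -0.77 with signals of 6377 and 3660, and Srxn1, sulfiredoxin, at -0.45. In the heme and iron list 1 of 10 was lower: Slc40a1, the iron exporter ferroportin, at -1.14 in non-tumor lung and -0.18 in tumors. Hmox1, heme oxygenase, gave 3519 and 3776, a difference of 0.14. Keap1 was at 0.08, and no gene of the Nrf2 regulator list other than Nfe2l2 was past 2-fold among 10 measured.

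Enzymes of carbonyl and ester metabolism held 3 and 5 lower genes of 20 and 12 measured. On 4 of the 5 in ester metabolism the Nrf2+/+ non-tumor array was at least 2-fold above each of the other 3, and 2 were lower when both non-tumor arrays had to be well above background. Aox1 and Aox3, aldehyde oxidases, were at -1.61 and -1.51 in non-tumor lung and at -1.22 and -1.88 in tumors. Aox1 gave 4484 and 1435 in non-tumor lung and Aox3 gave 2244 and 769. Ces1f and Ces1g, carboxylesterases, were below background on the Nrf2-/- non-tumor array and at least 25.4-fold and 10.4-fold lower there. Ces1f gave 534 and 8.88 in non-tumor lung and 87.9 and 6.82 in tumors. Ces1e was at -1.15 in non-tumor lung and -2.14 in tumors. Pon1, paraoxonase 1, gave 8450 and 3439 in non-tumor lung, a difference of -1.26, and 962 and 252 in tumors. Ces2e was at 1.16, the other way. Ces1 genes lie in a cluster of near copies, so their probes may not separate them.

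Of 18 cytochrome P450 and flavin monooxygenase genes, 2 were lower and 1 higher, and on both lower genes the Nrf2+/+ non-tumor array was at least 2-fold above each of the other 3. Cyp2a5 gave 6850 and 2349 in non-tumor lung and 1059 and 171 in tumors, differences of -1.51 and -2.70. Cyp2a4, a close copy of Cyp2a5 whose transcript the probes may share, was at -1.35 and -2.75. Cyp1a1, the aryl hydrocarbon receptor target, was measured on the Nrf2-/- array alone and was at least 2.13-fold higher. Cyp2e1, known to activate urethane, gave 127 and 135, a difference of 0.12. Sult1d1, a sulfotransferase, was at -1.15, and Aldh1a2, which makes retinoic acid and also marks mesothelium, was at 1.03. For Sult1d1 too the Nrf2+/+ non-tumor array was at least 2-fold above each of the other 3.

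**Figure D2:**
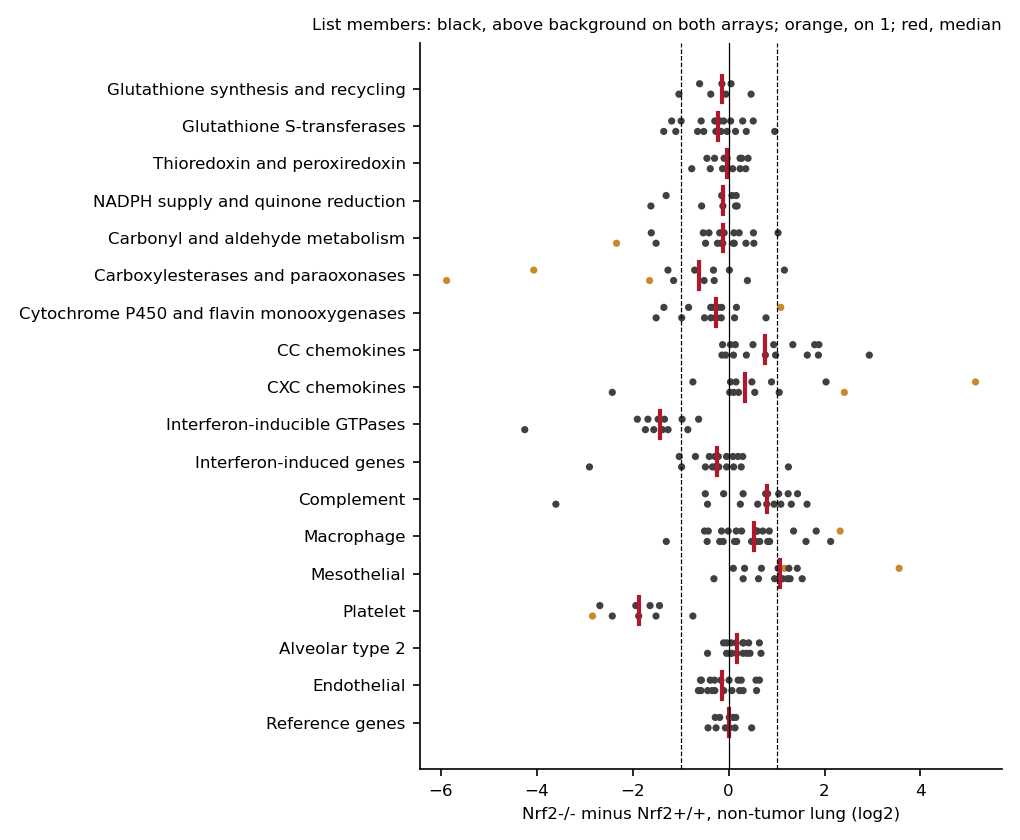
Difference between Nrf2-/- and Nrf2+/+ non-tumor lung (log2, horizontal axis) for each measured member of 18 gene lists, 1 point per gene, with the list median as a red bar and dashed lines at 2-fold. Interferon-inducible GTPases (median -1.42) and platelet genes (-1.87) lie left of 0, CC chemokines (0.77), complement (0.80) and mesothelial genes (1.08) lie mostly right of it, and alveolar type 2, endothelial and reference genes lie between the dashed lines.

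A part of the chemokine genes was higher. Of 17 CC chemokine genes measured, 6 (35.3%) were past 2-fold and higher in the Nrf2-/- lung and none lower, with a median of 0.77. In tumors 9 of 16 were higher and none lower. Each of the 6 higher in non-tumor lung was also higher in tumors. With normexp background correction 4 were higher in non-tumor lung and the median was 0.39.

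Ccl17, which draws Ccr4-bearing T cells, gave 378 in Nrf2+/+ and 2823 in Nrf2-/- non-tumor lung, and 979 and 4788 in tumors, differences of 2.93 and 2.22. Ccl9 gave 2075 and 7471, then 2777 and 7719. The monocyte chemoattractants Ccl2, Ccl7 and Ccl12 were at 1.79, 1.87 and 1.64, and Ccl3, which attracts several leukocyte classes, was at 1.34. Ccl2 gave 313 and 1061 in non-tumor lung and 338 and 922 in tumors. For Ccl17, Ccl9 and Ccl2 both Nrf2-/- arrays were above both Nrf2+/+ arrays. Ccl6 and Ccl8 lay just inside the mark at 0.98 and 0.94, and Ccl5, Ccl19 and Ccl21a, made by T cells and lymphoid stroma, were at -0.06, 0.10 and -0.12.

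Of 14 CXC chemokine genes, 4 were higher and 1 lower. On 3 of the 4, and on the 1 lower gene, the Nrf2+/+ non-tumor array was at least 2-fold apart from each of the other 3. The count higher was 2 with normexp, and 2 when both non-tumor arrays had to be well above background. Cxcl1, a neutrophil attractant, gave 6.82, below background, in Nrf2+/+ and 236 in Nrf2-/- non-tumor lung, at least 11.1-fold higher. Its tumor signals were 147 and 375, so it was not well above background on the Nrf2+/+ non-tumor array alone. Cxcl3 was at least 2.38-fold higher, Cxcl5 was at 2.03 and Cxcl9, an interferon-gamma target, at 1.06. The lower one was Ppbp, which is made by platelets. Of 17 cytokine genes measured, Csf2, the granulocyte and macrophage growth factor, was the only one past 2-fold, at 1.32. Over the 3 lists 11 of 48 genes (22.9%) were higher and 1 (2.08%) lower, with a median of 0.23, against 18 and 3 of 44 in tumors. With normexp 7 were higher in non-tumor lung. On 6 of the 11 the Nrf2+/+ non-tumor array was at least 2-fold below each of the other 3.

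Macrophage genes stood beside the chemokines. Of 26 measured, 5 were higher and 1 lower, with a median of 0.53, and on all 5 the Nrf2+/+ non-tumor array was at least 2-fold below each of the other 3 arrays. In tumors 5 were higher and 1 lower, with a median of 0.63, and 1 gene was higher in both tissues. Chil1, a chitinase-like protein, gave 4724 and 16359 in non-tumor lung and 30853 and 55243 in tumors. Ctsk, a lysosomal protease, was at 2.13, Trem2, a lipid receptor of macrophages, at 1.61, and Gpnmb at 1.36, and in tumors they were at 1.09, 0.50 and 0.83. Mmp12, macrophage elastase, was at least 5.01-fold higher. Arg1 was lower at -1.30, and at -1.33 in tumors. General markers differed less, with Adgre1, which encodes F4/80, at 0.12, Csf1r at -0.11 and Marco at 0.71. The summed signal of the list was 313190 in Nrf2+/+ and 358310 in Nrf2-/- non-tumor lung. The part that macrophage number has in the chemokine difference was not tested.

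Complement genes were split by a single large exception. Of 17 measured, 6 were higher and 1 lower, with a median of 0.80, against 4 and 1 of 17 and a median of 0.67 in tumors. Cfb, factor B of the alternative pathway, gave 5349 and 16233 in non-tumor lung and 5257 and 14578 in tumors, differences of 1.64 and 1.40. C1s1, Cfi, C1ra, C1qc and C4b were at 1.44, 1.31, 1.24, 1.09 and 1.04 in non-tumor lung. In tumors they were at 1.22, -0.61, 0.82, 0.53 and 1.61, in the same order. C3, the central component that all pathways cleave, gave 91256 and 7365 in non-tumor lung and 61277 and 4188 in tumors. Its differences were -3.60 and -3.95, and a second, dim C3 probe gave 144 and 17.1 in non-tumor lung. Both Nrf2-/- arrays were thus far below both Nrf2+/+ arrays for C3. Of the 17 genes, 13 had a difference above 0 in non-tumor lung and 15 in tumors. At least 2-fold higher in both tissues were 3.

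Interferon-inducible GTPases, which attack the vacuoles of intracellular pathogens, were lower as a family. Of 12 measured, 9 were past 2-fold and lower in the Nrf2-/- lung, and all 12 differences were below 0, with a median of -1.42. All 12 were measured on both arrays. In tumors the median was 0.12 and 1 gene, Ifi47, was lower. On 6 of the 9 the Nrf2+/+ non-tumor array was at least 2-fold above each of the other 3 arrays.

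Igtp, an immunity-related GTPase whose promoter window is shown above, gave 44097 in Nrf2+/+ and 17972 in Nrf2-/- non-tumor lung, and 12300 and 16539 in tumors. Tgtp1 gave 23954 and 9269, then 6488 and 9715. Irgm1, which regulates the family, gave 3498 and 1235, then 1103 and 1186. For these 3 genes the Nrf2+/+ non-tumor array was high and the other 3 arrays were lower. Their differences in non-tumor lung were -1.26, -1.34 and -1.47, and Irgm2, whose window is nearly identical to that of Igtp, was at -0.62.

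The guanylate-binding proteins, a second branch of these GTPases, were lower too. Gbp5 gave 4545 and 1189 in non-tumor lung and 976 and 1114 in tumors, a difference of -1.90 and 0.12. Gbp6, Gbp7 and Gbp4 were at -1.73, -1.56 and -1.38, and Gbp2 and Gbp3 lay inside the mark at -0.97 and -0.85. Ifi47 differed from the rest of the family. It gave 1631 and 83.9 in non-tumor lung and 607 and 64.1 in tumors, so that it was lower in Nrf2-/- tissue in both, at -4.25 and -3.32.

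Of 23 interferon-induced genes outside this family, 2 were lower and 1 higher, with 17 below 0 and a median of -0.24. In tumors the median was 0.48, and the difference between the 2 lists was not tested. On both lower genes the Nrf2+/+ non-tumor array was at least 2-fold above each of the other 3. Ido1, which breaks down tryptophan and responds to interferon-gamma, gave 3510 and 460 in non-tumor lung and 427 and 624 in tumors, a difference of -2.90 and 0.47. Ifit2 was at -1.03 and Ifi44 at 1.25. Irf1, a transcription factor induced by interferon, was at -0.24. Ifng itself gave 155 and 128, a difference of -0.25, and Isg15, a type I interferon target, was at -0.26. Tap1 and Tap2, which load peptides onto class I molecules, were at -1.10 and -1.34, while H2-T23 and H2-Q1, class I genes, were at 1.46 and 1.23. Class I genes are near copies of each other and probes may not separate them. H2-DMb1, of the class II pathway, was at 1.53 on 1 probe and 0.17 on the other.

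**Figure D3:**
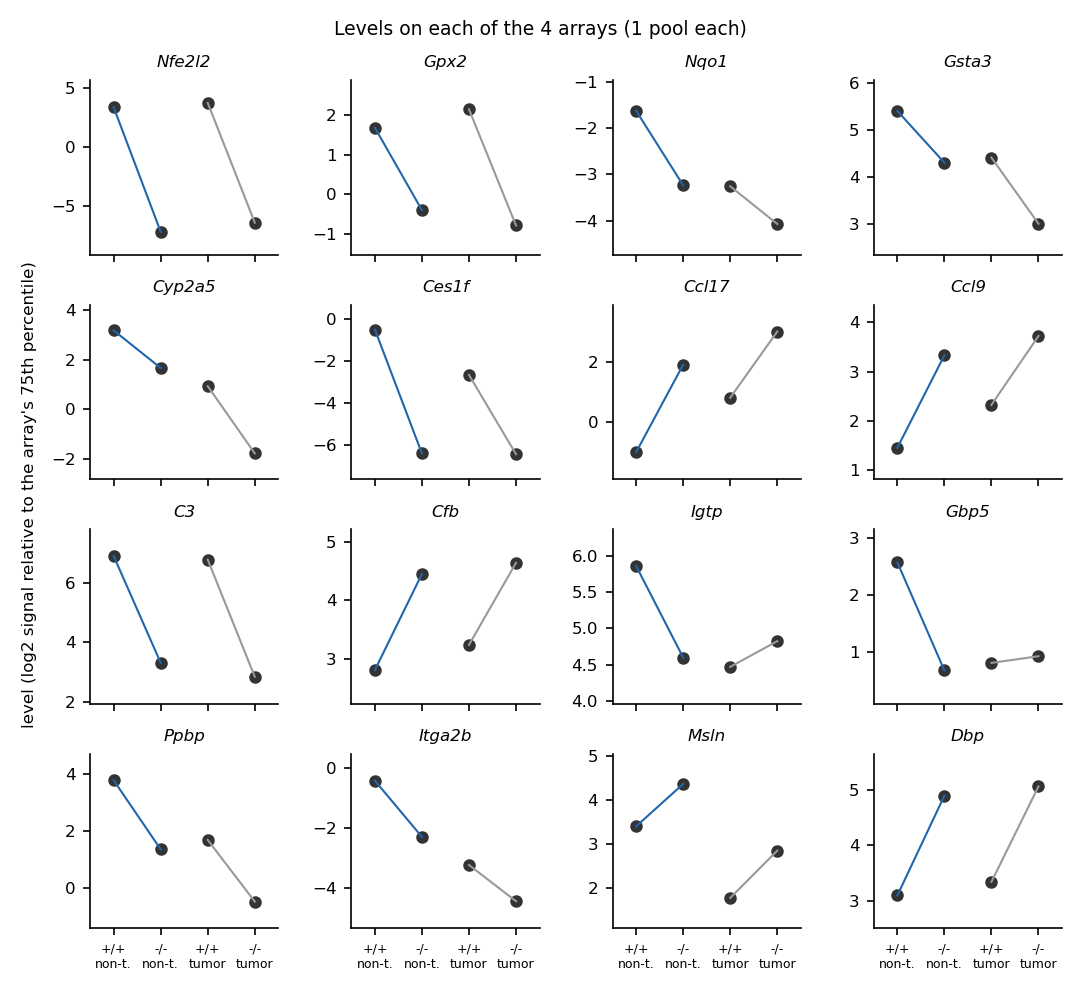
Level of 16 genes on each of the 4 arrays (log2 signal relative to the array's 75th percentile, vertical axis, a separate range per panel), with a line joining the 2 genotypes within a tissue; each point is 1 pool of 8 mice. Gpx2, Gsta3, C3 and Ppbp are lower in Nrf2-/- tissue of both kinds, Ccl17, Ccl9, Cfb and Dbp are higher in both, and Igtp and Gbp5 are high on the Nrf2+/+ non-tumor array alone.

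Platelet and megakaryocyte genes were lower. Of 9 measured, 8 were past 2-fold and lower in the Nrf2-/- lung, 7 of them also when a bound short of 2-fold is left out, and the median was -1.87. In tumors 5 of 8 were lower, with a median of -1.07. On all 8 the Nrf2+/+ non-tumor array was at least 2-fold above each of the other 3. The summed signal of the list was 29460 and 10057 in non-tumor lung and 49943 and 25524 in tumors. Pf4 alone gave 46850 and 24469 of the tumor sums. When all 4 arrays had to be well above background, 5 of 6 genes were lower in non-tumor lung.

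Ppbp, a platelet chemokine precursor, gave 10309 and 1877 in non-tumor lung and 1767 and 415 in tumors, differences of -2.42 and -2.16. Rgs18, a regulator of platelet signalling, gave 2568 and 391, a difference of -2.68. Itga2b, Gp1ba and Gp9, subunits of platelet adhesion receptors, were at -1.87, -1.93 and -1.64 in non-tumor lung and at -1.21, -1.12 and -0.91 in tumors. Pf4, platelet factor 4, was inside the mark at -0.74 with signals of 9322 and 5439. Erythroid genes did not share the difference, with none of 7 past 2-fold and a median of -0.18. The part that blood left in the tissue has in these values was not tested.

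Mesothelial genes, of the layer that covers the lung, were higher. Of 16 measured, 9 (56.3%) were at least 2-fold higher, none lower, and the median was 1.08. In tumors 7 of 14 were higher, with a median of 0.89, and 5 were higher in both tissues. When all 4 arrays had to be well above background, 5 of 12 were higher in non-tumor lung. On none of the 9 did the Nrf2+/+ non-tumor array stand 2-fold below all 3 others.

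Wt1, a transcription factor of mesothelium, gave 73.5 and 208 in non-tumor lung, a difference of 1.53. Lrrn4, Upk1b and Upk3b were at 1.43, 1.28 and 1.23 in non-tumor lung and at 1.17, 1.38 and 1.17 in tumors. Msln, mesothelin, gave 8018 and 15234 in non-tumor lung and 1902 and 4208 in tumors, a difference of 0.96 and 1.07. Psca, a surface antigen, gave 20.5, not well above background, in Nrf2+/+ lung and 235 in Nrf2-/- lung. The summed signal of the list was 43182 and 64133. Prg4, which encodes the lubricant lubricin, and Has1, a hyaluronan synthase, are also made by surface linings, and they gave 44.3 and 318 and 78.0 and 532 in non-tumor lung. Their differences were 2.88 and 2.80. How much pleural surface each pool held was not tested.

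Among named genes that both arrays measured, Tescl had the highest difference, 5.27, from 23.8 to 896, and in tumors it was at least 53.3-fold higher. Pigs, of the GPI transamidase, was at 3.22 on 1 probe and 0.27 on the other, with the same split in tumors, 2.58 and 0.13. Rgs16, Pitrm1, Camk2n1 and Ly6k were at 3.08, 3.01, 2.87 and 2.75 in non-tumor lung and at 1.49, 3.07, 2.69 and 2.78 in tumors. Timp1, an inhibitor of matrix proteases, gave 803 and 4688, and Saa3, an acute phase protein, gave 483 and 2727. Slc26a4, the anion exchanger pendrin, gave 1092 and 6156 in non-tumor lung and 1708 and 11489 in tumors. Ch25h, which makes 25-hydroxycholesterol, was at 2.65.

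Cdh1, which encodes E-cadherin, had the lowest difference among genes measured on both arrays. It gave 1089 in Nrf2+/+ and 33.3 in Nrf2-/- non-tumor lung, and 1981 and 32.3 in tumors, a difference of -5.04 in non-tumor lung. These values rest on 1 probe, with no second probe to set beside it. It is printed on 10 spots of each array. The spots ranged from 942 to 1295 on the Nrf2+/+ and from 22.3 to 60.2 on the Nrf2-/- non-tumor array. Of 22 epithelial junction genes measured, Cdh1 was the only one lower, and Cldn18, a claudin of alveolar epithelium, was the only one higher, at 1.59. The epithelial genes Epcam at 0.19, Cldn7 at 0.34, Krt8 at 0.31 and Ctnnb1 at -0.15 were within 2-fold.

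Other low extremes were shared with tumors in part. Col6a5, a collagen chain, was at -2.45 in non-tumor lung and -0.10 in tumors. Alpi, Prss37 and Clps were at -2.86, -2.72 and -2.57 in non-tumor lung and were near background in tumors. Rmnd1, a mitochondrial protein, gave 1204 and 57.1 in non-tumor lung and 1010 and 45.3 in tumors, and its second probe was at -2.83 against -4.37. Firre, a nuclear noncoding RNA, was at -3.99 and -4.43, and Adi1, an enzyme of methionine salvage, at -2.71 and -2.74. Tpd52l2 was at -2.33 and -2.47. Wif1, a secreted Wnt inhibitor, gave 2851 and 141 in non-tumor lung, a difference of -4.30, and was at least 3.63-fold lower in tumors from a signal of 124.

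Dbp, an output gene of the circadian clock, was higher in both tissues. It gave 6488 and 22194 in non-tumor lung and 5623 and 19606 in tumors, differences of 1.81 and 1.73. Nr1d1 and Nr1d2, nuclear receptors of the clock, were at 0.94 and 0.81, and Arntl, whose protein is Bmal1, was at -0.73. Cry1 was at least 3.26-fold lower. Of 15 clock genes measured 1 was higher and 1 lower, and the labels do not give the hour at which each pool was collected.

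The tumor pair gave a second reading of genotype on arrays of a single slide. Of 17804 genes measured in tumors, 754 (4.24%) were past 2-fold on the higher side and 648 (3.64%) on the lower side in Nrf2-/- tissue. Of 17454 measured in both pairs, 170 (0.974%) were higher in both tissues, 202 (1.16%) were lower in both, and 23 were past 2-fold in opposite directions. Within these 17454 genes, 364 were higher in non-tumor lung and 615 in tumors, and the 170 were 46.7% and 27.6% of them. Lower were 455 in non-tumor lung and 516 in tumors, and the 202 were 44.4% and 39.1% of them.

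**Figure D4:**
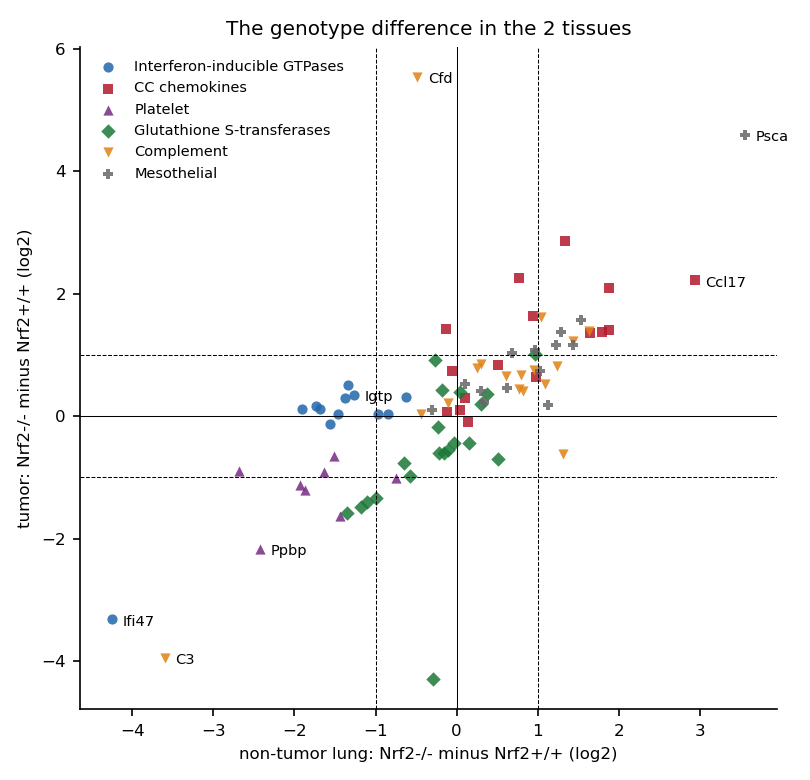
Difference between Nrf2-/- and Nrf2+/+ in tumors (log2, vertical axis) against that in non-tumor lung (log2, horizontal axis) for members of 6 lists measured in both pairs, 1 point per gene, with dashed lines at 2-fold. Most interferon-inducible GTPases lie left of -1 on the horizontal axis and near 0 on the vertical axis, while Ifi47, C3 and Ppbp are lower in both tissues and Ccl17 and Psca are higher in both.

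A single test of genotype was available, a limma fit with tissue and genotype as additive terms over the 4 arrays, which leaves 1 residual degree of freedom. It called 0 of 20553 genes (0%) at a Benjamini-Hochberg adjusted p under 0.05, and 1910 had an unadjusted p under 0.05. Nfe2l2 had the smallest adjusted p in limma, 0.167, at a mean difference of -10.35 with a standard error of 0.19. The same limma fit under 6 other settings called 0, 0, 1, 53, 78 and 150 genes, so the count depends on scaling, background correction and the filter on dim probes. The differences above are therefore values of these pools, without a gene-wise test.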

How the data were processed

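RNA pools of 8 mice each were read on 4 Agilent whole-mouse-genome arrays (design 014868, annotated on mm9 per the file headers), 1 per group and 1 colour (Cy3, 500 ng RNA). Each deposited value is an intensity, linear and background-subtracted, from Feature Extraction 10.7.3.1, per the file headers. The submitters' value table held the same intensity unlogged and uncentred, with column medians of 79.2, 70.0, 47.2 and 50.1. Between 54.2% and 63.5% of spots were well above background and 0 were saturated; the number of arrays limits the precision.

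The log2 of the processed signal minus each array's 75th percentile was used (Python 3.11.15, numpy 2.4.6, pandas 2.3.3). Control probes were dropped, and so were 4 of the other 41174 for uneven spots. Accessions matched without version to RefSeq (GRCm38.p6) named 26691 probes and left 14479 unnamed. For a gene with several probes, the one brightest on average over the 2 non-tumor arrays was taken. The additive fit took the one brightest on average over all 4 arrays. Differences were counted at 2-fold, and the additive fit used limma 3.58.1 in R 4.3.3. Both were run on simulated data that held the error estimate of the scanner software alone, without a slide effect or spread between mice. The planned normexp correction needs the mean spot signal, which is not used here, so the median spot signal replaced it, a choice made after seeing the files. Named genes were the 20 largest differences each way measured on both arrays, the 8 largest bounds each way, the 10 each way largest in both tissues, list members past 2-fold or defining a list, and Nfe2l2 with its neighbours; of these a selection is printed. The comparison, the gene lists and these rules were chosen with earlier results of these data known.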

Additional observations from a re-analysis of the deposited data

Results flagged for a closer look

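Among the named genes and list members measured on all 4 arrays, 3 were past 2-fold in opposite directions in the 2 tissues. These contrasts between tissues were not tested, because each rests on 1 array per group. Cxcl5, a neutrophil attractant, was higher in Nrf2-/- non-tumor lung at 2.03 and lower past the same mark in Nrf2-/- tumors, with signals of 51.7, 206, 273 and 71.8 in Nrf2+/+ lung, Nrf2-/- lung, Nrf2+/+ tumor and Nrf2-/- tumor. Ubd, a ubiquitin-like modifier induced by inflammatory cytokines, was at -2.30 in non-tumor lung and 3.39 in tumors, with signals of 323, 64.0, 268 and 2955 in the same order. Xlr3c, an X-linked gene with close relatives, was at 2.44 in non-tumor lung and -1.87 in tumors, with signals of 87.6, 465, 1574 and 452. Groups of 1 array allow no check for a sample that stands apart within its group.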

How the results depend on the processing

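No paired analysis was possible because each group has 1 array and the labels' replicate numbers run across groups. The counts of 617 higher, 938 lower and 372 genes past 2-fold the same way in both tissues became 204, 256 and 155 with normexp correction, chosen after seeing the data. They became 1420, 2059 and 985 at a 1.5-fold mark and 302, 437 and 138 at a 3-fold mark. Requiring signal well above background on both non-tumor arrays gave 329 higher and 467 lower, and on all 4 arrays 266, 282 and 215 in both tissues. With no filter on dim probes 1594 were lower. The other settings, which were median, quantile and spike-in scaling, the mean of a gene's probes and its dimmest passing probe, kept these 3 counts within 1.5 times. The detoxification median stayed between -0.22 and -0.01 and the chemokine and cytokine median between 0.16 and 0.38 over the 9 alternatives run. The limma fit called 78 genes with median scaling, 1 with spike-in scaling, 53 with normexp and 150 with all 4 arrays above background, and 0 with quantile scaling or the mean of probes. Of 157 named genes and list members past 2-fold, 148 were still past it with median scaling, 152 with quantile and 155 with spike-in scaling. With normexp 116 of 156 were. With the dimmest probe Col15a1 turned from 1.04 to -0.90 and Wipf1, inside the mark, from 0.40 to -0.23. Interferon-inducible GTPases kept 9 or 10 lower of 12 in each of these alternatives. Low signal limits the 4041 dimmest genes most.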

Other observations

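Genes of mast cells and eosinophils were mostly dim, and 4 of 8 measured were past 2-fold and lower in the Nrf2-/- lung. On all 4 the Nrf2+/+ non-tumor array stood at least 2-fold above each of the other 3. When members whose bound did not reach 2-fold were left out, 3 lower remained. When both non-tumor arrays had to be well above background, 2 of 6 were lower. Prg2, eosinophil major basic protein, gave 266 and 117, a difference of -1.14, and Mcpt4, a mast cell protease, ran the other way at 1.69. With normexp correction none of the 8 was past 2-fold. Neutrophil genes did not move together. Lcn2, lipocalin 2, gave 1042 and 4442, a difference of 2.13, and Cd177 was at 1.89, while Mpo, myeloperoxidase, was at -1.36. On each of these the Nrf2+/+ non-tumor array was at least 2-fold apart from each of the other 3.

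Cdkn2a, which encodes the cell cycle inhibitors p16 and p19, was not well above background in Nrf2+/+ lung and gave 202 in Nrf2-/- lung, at least 9.43-fold higher, with 209 and 166 in tumors. None of 23 cell cycle genes was past 2-fold. Nppa, atrial natriuretic factor, gave 64.0 and 30.2 in non-tumor lung, near background, and 25.2 and 1481 in tumors.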
